A study of Homo sapiens with 6 samples.

Results

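The Notch pathway was followed through 37 genes in 6 RNA sequencing libraries of Daoy, an established cell line derived from a human medulloblastoma of the cerebellum, in which ZBTB7B was delivered by lentivirus. The genes were taken from a given list of 4 receptors, 7 ligands and ligand relatives, 3 Fringe glycosyltransferases, 3 γ-secretase subunits, 6 genes of receptor turnover, 4 genes of the nuclear complex, and 10 HES, HEY and NRARP genes. Matched by GENCODE release 29 symbols, they are 37 of the 60554 gene identifiers in the count data. The WT group (n = 3) carried wild-type ZBTB7B, and the ZFmut group (n = 3) carried ZBTB7B with the substitution R363L in its zinc-finger domain. Each group received its virus at a multiplicity of infection of 15, which was left for 72 hr, within 4 days of culture in medium with 10% fetal bovine serum. ZBTB7B (ThPOK) is a transcription factor that commits thymocytes to the CD4 lineage. No library without a transgene was among the samples, and the labels do not say whether the replicates were separate cultures. The p-values then reflect only how much these samples vary, which could be technical variation.

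Notch receptors are cleaved by γ-secretase after a neighbouring cell presents a ligand of the Delta or Jagged family. The released intracellular part enters the nucleus, binds the DNA-binding protein RBPJ (also called CSL) and a Mastermind coactivator, and turns on target genes. The best known targets encode the basic helix-loop-helix repressors of the HES and HEY families, which hold back differentiation in neural progenitors, those of the cerebellum among them.

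The promoter sequences of 4 HES genes are shown because the targets and repressors held the greatest share of called genes among the roles, and because RBPJ sites are known from such promoters. They are RefSeq sequences on GRCh38.p14, read 5′ to 3′ on the strand of the gene, and run from 167 to 48 bases before the annotated start. Capitals mark the RBPJ core motif TGGGAA on either strand and the arms of a paired motif, GTGNGAA followed after 15 to 17 bases by TTCNCAC, whose first arm can itself hold TGGGAA. HES1 lies on the plus strand at chr3:194135981-194136100. The other 3 stretches lie on the minus strand, HES4 at chr1:1000145-1000264, HES5 at chr1:2530311-2530430 and HES7 at chr17:8124154-8124273.
HES1: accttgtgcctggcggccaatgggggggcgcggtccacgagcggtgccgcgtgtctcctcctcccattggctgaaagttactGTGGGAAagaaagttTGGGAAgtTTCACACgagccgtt
HES4: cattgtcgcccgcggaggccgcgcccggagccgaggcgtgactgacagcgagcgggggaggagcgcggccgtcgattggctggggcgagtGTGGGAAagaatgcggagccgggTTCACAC
HES5: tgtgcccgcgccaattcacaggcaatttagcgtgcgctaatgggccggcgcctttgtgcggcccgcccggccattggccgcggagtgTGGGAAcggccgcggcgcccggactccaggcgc
HES7: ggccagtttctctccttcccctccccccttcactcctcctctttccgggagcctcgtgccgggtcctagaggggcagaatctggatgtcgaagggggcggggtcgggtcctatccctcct
HES1 and HES4 each hold the paired motif with a spacer of 16 bases, and its first base lies 85 bases before the start in HES1 and 77 bases before it in HES4. Only 4 of 35116 RefSeq promoter windows of 300 bases (0.0114%; 250 bases before the start to 50 after it) hold this pair. HES5 has the core motif without the pair, and the HES7 stretch has neither. A match is a description of letters and not evidence of binding.

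A promoter window was found for 30 of the 37 genes, and not for DLL1, DLL3, DLK1, HEY1, MFNG, DTX1 and DTX3. Some genes have several windows, 37 in all, and TGGGAA was in 9 of these 37 windows (24.3%), close to the 24.0% of all 35116 windows. The 9 windows belong to 8 genes, HES1, HES4, HES5, HEY2, HEYL, LFNG, DTX2 and RBPJ. Among the targets and repressors, 5 of 9 genes with a window held the motif, and these 5 were among the 7 such genes whose transcripts were higher in WT libraries. HES2 and HES7, also higher, did not hold it, nor did HES6 and NRARP, which did not pass the test. Of the 21 other genes with a window, 3 held it. HES5 and HES2 are counted here although the filter fixed their direction.

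ZBTB7B itself was measured in every library first, as the gene the virus delivers. In CPM, which are read counts scaled to a common library size, the WT libraries held 899, 863 and 951 and the ZFmut libraries 555, 547 and 627. The means were 904 ± 44.3 and 576 ± 43.8 (SD, n = 3 each), a 1.57-fold higher level in WT libraries (log2 difference 0.65 ± 0.06 SE, adjusted p = 1.39e-06 by edgeR's quasi-likelihood test). Reads from the transgene and from the endogenous gene (ENSG00000160685.13, chr1:155002630-155018522) were counted together. The difference in the level of ZBTB7B and the difference in its zinc finger run between the same groups, so their parts in every result below cannot be told apart.

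Reads assigned to genes ranged from 22236214 to 102730428 per library, and those of the 37 genes from 35257 to 163800. The first principal component held 62.2% of the variance and separated WT from ZFmut libraries. The second held 14.9% and set ZFmut replicate 1 (28.8) apart from ZFmut replicate 2 (-24.5). Of 18683 genes tested in all, 18.4% were higher and 17.2% lower in WT libraries, 35.6% in either direction, and the groups did not overlap for 47.2%. In bulk RNA, fewer cells with a transcript and less transcript per cell cannot be told apart.

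All 37 genes passed the low-count filter, 16 were higher in WT libraries (43.2%, against 18.4% of all tested genes) and 6 were lower (16.2%, against 17.2%). The other 15 did not pass the test at an adjusted p of 0.05. Since the list was chosen with earlier results of these data known, its shares, and those by role below, are descriptive. The median log2 difference, WT minus ZFmut, was 0.11 over the 37 genes, with a range from -0.90 to 3.34, and 0.00 over all tested genes. The groups did not overlap for 26 genes (70.3%, against 47.2% of all tested genes). At least 2-fold differences were called for 6 genes, all of them higher in WT libraries, namely JAG1, DTX1, HES2, HES4, HES5 and HES7. Among the 18683 tested genes, calls of this size numbered 491 upward and 293 downward in WT libraries. The filter fixed the direction of HES2 and HES5, which leaves JAG1, DTX1, HES4 and HES7. The count of lower genes depended on single libraries, being 3 without WT replicate 3, where DLK1, DLK2 and DTX4 lost their calls, and 10 without ZFmut replicate 1, where APH1A, NUMBL, DTX3 and HES6 gained one. HES2 and HES5 passed the filter through the WT libraries alone and so had to differ. Without them, 14 of 35 genes were higher (40.0%) and 6 lower (17.1%), the groups did not overlap for 24 (68.6%), and the median log2 difference was 0.07. Among genes of at least 1 CPM, 13 of 31 on the list were higher (41.9%), against 20.5% of 15243 tested genes, and 5 were lower (16.1%), against 19.6%.

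**Figure D1:**
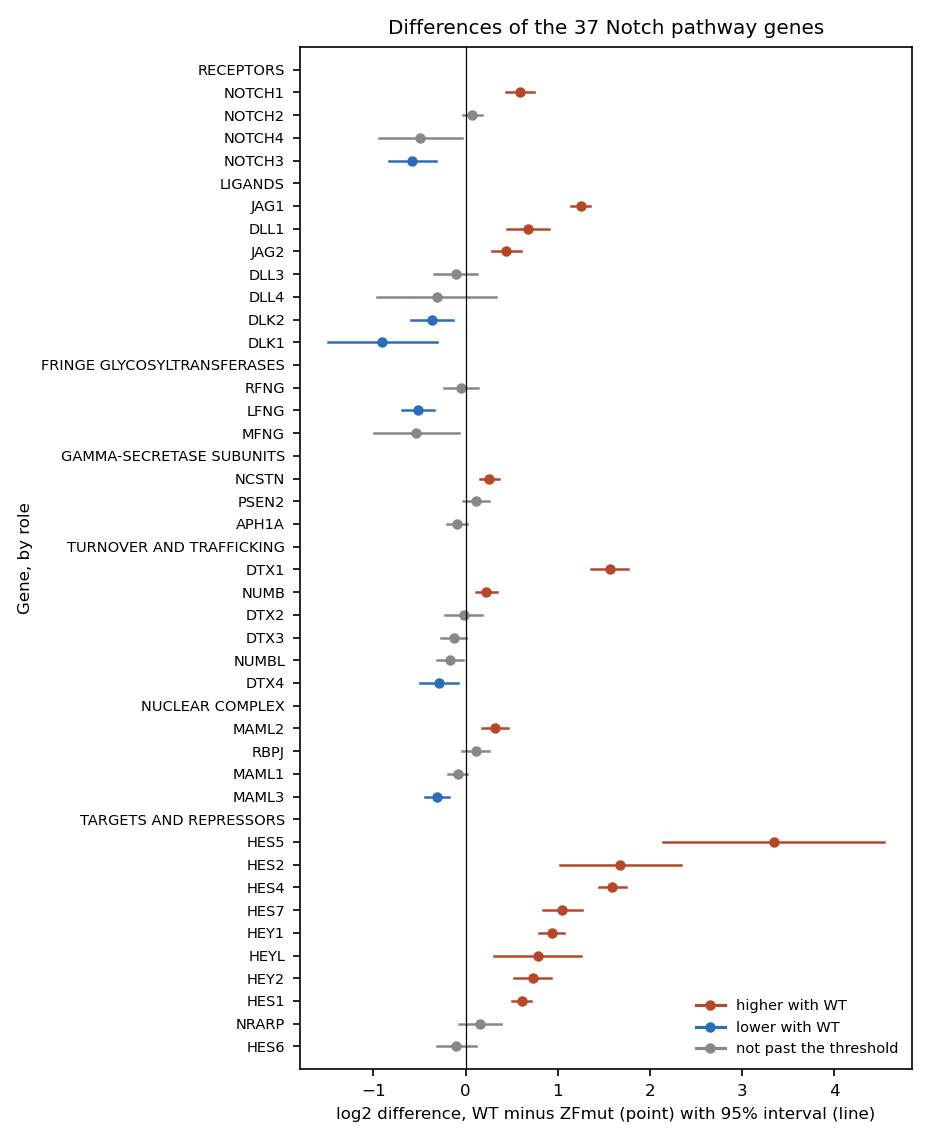
Log2 difference, WT minus ZFmut, of the 37 Notch pathway genes grouped by role, with 95% intervals from edgeR's quasi-likelihood fit on 3 libraries per group. The targets and repressors lie to the right of 0 except HES6 (-0.10), and the filter fixed the side of HES2 and HES5. The Fringe genes lie to the left (-0.52 for LFNG), and the remaining roles hold genes on each side.

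The targets and repressors were the role with the most calls. Of 10 genes, 8 were higher in WT libraries (HES1, HES2, HES4, HES5, HES7, HEY1, HEY2 and HEYL), none was lower, and HES6 and NRARP did not pass the test. This is 80.0% higher, against 18.4% of all tested genes, in a list chosen with earlier results of these data known. HES2 and HES5 had to differ to pass the filter, and without them 6 of 8 genes were higher (75.0%). The median log2 difference was 0.86 with them and 0.76 without.

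HES1, the repressor that oscillates in neural progenitors and keeps them undifferentiated, had the highest level of the role in CPM. Its levels were 74.7, 75.9 and 75.6 CPM in WT libraries and 48.5, 49.1 and 50.5 CPM in ZFmut libraries. Each group was tight and the 2 did not overlap. The means of 75.4 ± 0.630 and 49.3 ± 1.03 CPM gave a 1.53-fold higher level (log2 difference 0.61 ± 0.05, adjusted p = 3.97e-07). The gene is ENSG00000114315.3 at chr3:194136145-194138732.

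HES4, a relative of HES1 that mice lack, was at 45.2, 51.0 and 49.9 CPM in WT libraries and at 15.8, 17.1 and 15.8 CPM in ZFmut libraries. Every WT library was far above every ZFmut library. The level was 3.02-fold higher (48.7 ± 3.12 against 16.2 ± 0.741 CPM, log2 difference 1.59 ± 0.07, adjusted p = 8.22e-10), the smallest adjusted p among the targets and repressors. The gene is ENSG00000188290.10 at chr1:998962-1000172. HES1 and HES4 are the pair of genes whose promoters, shown above, hold the paired motif.

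HES7 is known from the segmentation clock of the somites. Its levels were 11.3, 11.9 and 12.5 CPM in WT libraries and 5.49, 5.05 and 6.24 CPM in ZFmut libraries. The groups did not overlap, and the level was 2.07-fold higher (11.9 ± 0.589 against 5.59 ± 0.604 CPM, log2 difference 1.05 ± 0.10, adjusted p = 1.45e-06). The gene is ENSG00000179111.8 at chr17:8120590-8124092.

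HES2 and HES5 were the least abundant of the called repressors. HES5, a Notch target of neural stem cells, had 15, 20 and 16 reads in WT libraries and 0, 3 and 3 reads in ZFmut libraries. Summed and scaled by library size, the 51 and 6 reads gave a ratio of 10.7 (95% exact interval 4.61 to 30.6, for counting error only). The fitted log2 difference of 3.34 depends on the prior count. HES2 was at 0.829, 0.633 and 0.823 CPM in WT libraries and at 0.178, 0.292 and 0.226 CPM in ZFmut libraries. Its 86 and 34 reads gave a ratio of 3.19 (2.12 to 4.90), with a fitted log2 difference of 1.68. No p is given for either gene, since each passed the filter only through the group where it was high.

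The HEY genes encode repressors best known from heart and vessel development, and all 3 were higher in WT libraries. HEY1 (ENSG00000164683.16) was at 34.9, 36.7 and 35.3 CPM in WT libraries and at 18.9, 17.9 and 19.0 CPM in ZFmut libraries. This is a 1.91-fold higher level with no overlap (35.6 ± 0.941 against 18.6 ± 0.638 CPM, log2 difference 0.94 ± 0.06, adjusted p = 5.95e-08). HEY2, at chr6:125747664-125761269, was at 9.60, 10.0 and 10.6 CPM in WT libraries and at 5.53, 5.97 and 6.44 CPM in ZFmut libraries. It was 1.66-fold higher (log2 difference 0.73 ± 0.09, adjusted p = 3.31e-05).

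HEYL, the third HEY gene, rested on few reads. It was at 1.07, 1.18 and 1.14 CPM in WT libraries and at 0.714, 0.793 and 0.589 CPM in ZFmut libraries. The groups did not overlap, and the ratio of its 134 and 95 reads, scaled by library size, was 1.78 (1.36 to 2.34). Its log2 difference of 0.78 ± 0.22 passed in edgeR (adjusted p = 0.0130) but not in DESeq2 (0.0570), after thinning to equal depth (0.146), without WT replicate 2 (0.0554) or without ZFmut replicate 3 (0.130). Over 15 alternatives the adjusted p of HEYL ranged from 0.00291 to 0.146.

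HES6 and NRARP did not pass the test. HES6, which opposes HES1 and promotes neuronal differentiation, was at 14.3, 15.4 and 14.3 CPM in WT libraries and at 12.6, 16.8 and 17.2 CPM in ZFmut libraries. The ranges overlapped (log2 difference -0.10, 95% interval -0.31 to 0.12, adjusted p = 0.484). Without ZFmut replicate 1 it was called lower in WT libraries (-0.22, adjusted p = 0.0242), the lower end of a range that reached 0.995. NRARP, a target whose product destabilises the Notch complex, was at 15.9, 18.8 and 18.1 CPM in WT libraries and at 12.6, 17.2 and 17.1 CPM in ZFmut libraries. These also overlapped (0.16, interval -0.07 to 0.38, adjusted p = 0.271), although NRARP was called higher after correction for GC content and length (0.22, adjusted p = 0.00975; range over the alternatives 0.00561 to 0.798).

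**Figure D2:**
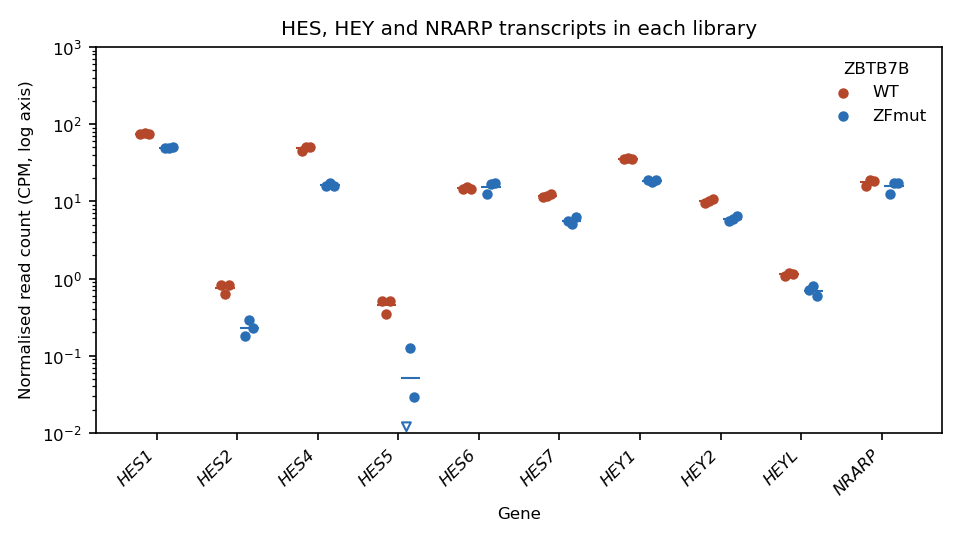
CPM on a log axis of the 10 targets and repressors in each of the 3 WT and 3 ZFmut libraries, with horizontal lines at the group means and an open triangle where a library had 0 reads (HES5, ZFmut replicate 1). The groups stand apart for HES1 (75.4 against 49.3 CPM), HES4, HES7, HEY1, HEY2 and HEYL, and overlap for HES6 and NRARP. HES2 and HES5 also stand apart, but both passed the filter through WT libraries alone, which fixed their direction.

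The ligands moved in opposite directions. Of 7 ligands and relatives, JAG1, JAG2 and DLL1 were higher in WT libraries, and DLK1 and DLK2, which lack the domain that activates Notch and are known as inhibitors, were lower. DLL3 and DLL4 did not pass the test. This is 42.9% higher and 28.6% lower, against 18.4 and 17.2% of all tested genes, with a median log2 difference of -0.11.

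JAG1, the Jagged ligand mutated in Alagille syndrome, had the highest CPM of the ligands and the smallest adjusted p of the 37 genes. Its levels were 145, 141 and 147 CPM in WT libraries and 60.7, 59.5 and 61.5 CPM in ZFmut libraries. The replicates of each group were close together and the groups far apart. The level was 2.38-fold higher (144 ± 3.26 against 60.6 ± 1.02 CPM, log2 difference 1.25 ± 0.05, adjusted p = 3.28e-10). The gene is ENSG00000101384.11 at chr20:10637684-10673999.

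The other Jagged ligand, JAG2 (ENSG00000184916.8, chr14:105140981-105168824), was at 36, 35.8 and 38.2 CPM in WT libraries and at 23.7, 28.2 and 28.4 CPM in ZFmut libraries. It was 1.36-fold higher (log2 difference 0.44 ± 0.07, adjusted p = 0.000289), and 7.33% of its exonic sequence lies in another gene on the same strand, where reads are not assigned. DLL1, a Delta ligand of neural and somite development, was at 10.3, 10.0 and 9.56 CPM in WT libraries and at 5.04, 6.72 and 6.61 CPM in ZFmut libraries. The groups did not overlap, and DLL1 (ENSG00000198719.8, chr6:170282206-170306565) was 1.60-fold higher (log2 difference 0.68 ± 0.11, adjusted p = 0.000176).

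DLL3, a Delta protein that acts within its own cell and inhibits Notch, was at 5.35, 5.23 and 5.0 CPM in WT libraries and at 4.95, 6.01 and 5.71 CPM in ZFmut libraries, with overlap (log2 difference -0.11, interval -0.34 to 0.12, adjusted p = 0.477). DLL4, known from sprouting vessels, was at 0.380, 0.440 and 0.317 CPM in WT libraries and at 0.535, 0.334 and 0.520 CPM in ZFmut libraries. It passed the filter of 0.334 CPM in 2 libraries of each group. Its 46 and 73 reads gave a ratio of 0.796 (0.538 to 1.17), and no difference was detectable at this depth (adjusted p = 0.459 by edgeR).

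DLK1 and DLK2 were the ligand relatives with lower levels in WT libraries. DLK2 was at 4.18, 5.03 and 4.62 CPM in WT libraries and at 5.85, 6.26 and 5.92 CPM in ZFmut libraries, a 1.29-fold lower level (log2 difference -0.36 ± 0.11, adjusted p = 0.0168). DLK1, a marker of progenitors, was at 0.553, 0.510 and 0.348 CPM in WT libraries and at 0.759, 1.21 and 0.805 CPM in ZFmut libraries. It was 1.87-fold lower (log2 difference -0.90 ± 0.28, adjusted p = 0.0204), the lowest value of the 37 genes. Each call was lost in some settings. For DLK1 the adjusted p was 0.0598 after thinning, 0.0884 without WT replicate 3 and 0.0657 without ZFmut replicate 2, against 0.00598 at its lowest. For DLK2 it was 0.0553 after correction for GC content and length, 0.0627 without WT replicate 1, 0.0532 without WT replicate 3 and 0.0548 without ZFmut replicate 3, against 0.00488 at its lowest.

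The receptors also parted. NOTCH1 was higher and NOTCH3 lower in WT libraries, while NOTCH2 and NOTCH4 did not pass the test (25.0% in each direction, against 18.4 and 17.2% of all tested genes). NOTCH1 (ENSG00000148400.9, chr9:136494433-136545786) was at 159, 191 and 189 CPM in WT libraries and at 111, 123 and 124 CPM in ZFmut libraries. It was 1.5-fold higher with no overlap (179 ± 17.8 against 119 ± 7.30 CPM, log2 difference 0.59 ± 0.07, adjusted p = 1.82e-05).

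NOTCH3, best known from vascular smooth muscle, went the other way. Its levels were 17.4, 26.6 and 22.8 CPM in WT libraries and 29.3, 33.7 and 36.9 CPM in ZFmut libraries. Every ZFmut library was above every WT library, and the level was 1.49-fold lower in WT libraries (22.2 ± 4.60 against 33.3 ± 3.84 CPM, log2 difference -0.58 ± 0.12, adjusted p = 0.00169). NOTCH3 (ENSG00000074181.8) lies at chr19:15159038-15200981.

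NOTCH2, the receptor of granule neuron precursors in the cerebellum, was at 411, 404 and 412 CPM in WT libraries and at 399, 391 and 376 CPM in ZFmut libraries. Its groups did not overlap, but the log2 difference of 0.07 (interval -0.03 to 0.18) did not pass the test (adjusted p = 0.266). NOTCH2 (ENSG00000134250.17, chr1:119911553-120069626) has near-identical NOTCH2NL copies, so its counts are uncertain. NOTCH4, known from endothelium, was at 0.794, 0.739 and 0.950 CPM in WT libraries and at 0.982, 1.17 and 1.21 CPM in ZFmut libraries. Its log2 difference was -0.49 (interval -0.94 to -0.04, adjusted p = 0.0851).

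**Figure D3:**
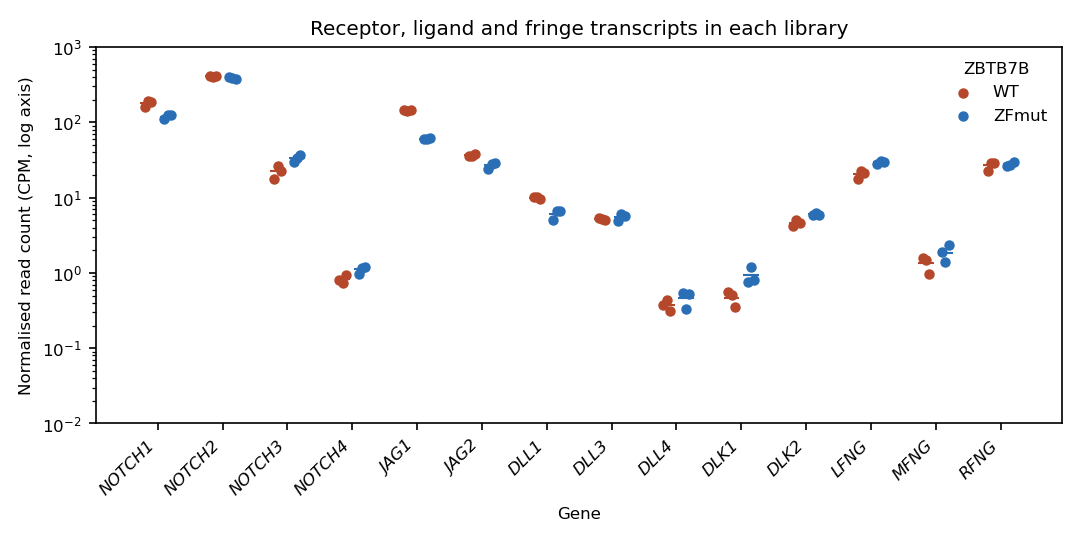
CPM on a log axis of the receptors, ligands and Fringe genes in each of the 3 WT and 3 ZFmut libraries, with horizontal lines at the group means. JAG1 is set apart by 144 against 60.6 CPM, NOTCH3 and LFNG lie higher in ZFmut libraries, and DLL3 overlaps.

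Fringe enzymes add sugars to the Notch extracellular part, and LFNG and MFNG shift its response from Jagged towards Delta ligands. LFNG, at chr7:2512529-2529177, was lower in WT libraries. Its levels were 17.8, 22.3 and 21.2 CPM in WT libraries and 27.8, 30.4 and 29.7 CPM in ZFmut libraries, a 1.43-fold lower level with no overlap (log2 difference -0.52 ± 0.08, adjusted p = 0.000194). MFNG was at 1.59, 1.5 and 0.981 CPM in WT libraries and at 1.87, 1.38 and 2.33 CPM in ZFmut libraries, and its difference of -0.53 (interval -1.0 to -0.07) did not pass the test (adjusted p = 0.0706). The MFNG call appeared with no low-count filter (adjusted p = 0.0244), without WT replicate 1 (0.0498) and without ZFmut replicate 2 (0.0271), within a range of 0.0244 to 0.550 over 15 alternatives. RFNG was at 22.9 to 29.1 CPM in WT libraries and at 26.1 to 29.8 CPM in ZFmut libraries (-0.05, adjusted p = 0.705). RFNG shares 21.6% of its exonic sequence with a gene on the other strand, and the kit does not mark strand.

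The share of each gene within its family was compared as CPM per kilobase of exon. The same scale is used for the order of the genes by level below. Rankings given in CPM above do not allow for gene length. Of the summed receptor level, NOTCH1 held 36.7, 40.5 and 40.2% in WT libraries and 28.4, 30.6 and 31.1% in ZFmut libraries. NOTCH3 held 4.44, 6.24 and 5.37% in WT libraries and 8.28, 9.23 and 10.2% in ZFmut libraries. NOTCH2 was the most abundant receptor in every library, with 53.1 to 58.7% and 58.4 to 63.1%.

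Among the 5 Jagged and Delta ligands, JAG1 held 58.8, 58.3 and 59.2% in WT libraries and 47.3, 41.9 and 43.0% in ZFmut libraries. This sum includes DLL3, described above as an inhibitor, at a mean of 7.52% in WT and 14.3% in ZFmut libraries. Among the 9 HES and HEY genes, HES4 held the most in every WT library (38.5, 40.7 and 40.4%), and HES1 the most in every ZFmut library (42.9, 41.0 and 41.6%). HES4 held 25.7, 26.3 and 24.0% in ZFmut libraries, and HES1 held 34.5, 32.8 and 33.1% in WT libraries. The HEY1 share was 9.87 to 10.3% and 9.51 to 10.7%, with overlap.

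The summed level of the 4 receptors was 44.1 ± 2.05 in WT libraries and 38.3 ± 0.621 in ZFmut libraries (CPM per kilobase, SD, n = 3). The 5 ligands summed to 26.4 ± 0.411 and 14.8 ± 0.882, and the 9 HES and HEY genes to 109 ± 3.84 and 57.3 ± 2.17. HES2 and HES5, which passed the filter through WT libraries alone, held on average 0.129 and 0.323% of the last sum in WT libraries. These sums were tested with a selection of shares, those of NOTCH1, NOTCH2, NOTCH3, JAG1, HES1, HES4 and HEY1. The other shares were not tested. Of 10 such sums and shares, 8 had no overlap between groups and reached p = 0.1 in an exact two-sided permutation test over 20 splits, the smallest p that 3 against 3 libraries allow, or 0.125 adjusted over the 10. The share of NOTCH2 had an exact permutation p of 0.2 (adjusted 0.222) and that of HEY1 a p of 1.

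**Figure D4:**
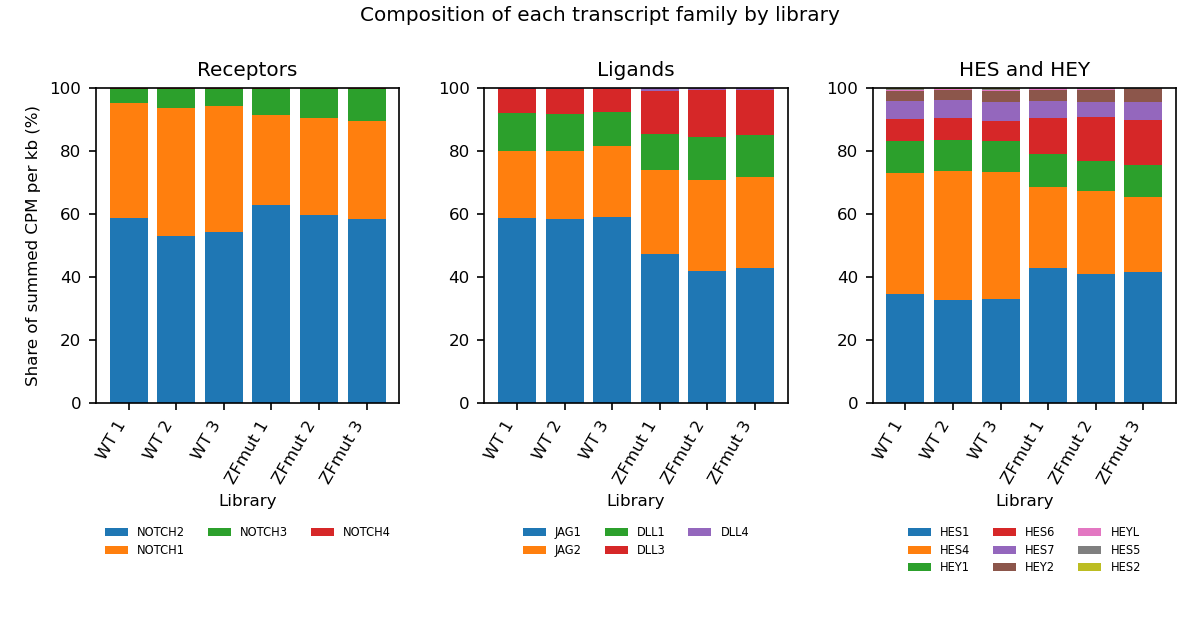
Stacked bars of the share in % that each gene takes of its family's summed CPM per kilobase, one bar per library. The families are receptors, Jagged and Delta ligands, and HES and HEY genes. The JAG1 share is 58.3 to 59.2% in WT and 41.9 to 47.3% in ZFmut libraries, and the HES4 share is 38.5 to 40.7% and 24.0 to 26.3%.

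γ-Secretase, the protease complex that releases the Notch intracellular part, was represented by PSEN2 (a catalytic subunit), NCSTN (nicastrin, the substrate-binding subunit) and APH1A (a scaffold). NCSTN was at 184, 186 and 184 CPM in WT libraries and at 151, 156 and 156 CPM in ZFmut libraries. This was a small but non-overlapping difference, 1.2-fold (log2 difference 0.26 ± 0.05, adjusted p = 0.000911). NCSTN (ENSG00000162736.15) lies at chr1:160343272-160358952. PSEN2 was at 25.3, 26.9 and 26.7 CPM in WT libraries and at 23.3, 26.2 and 23.7 CPM in ZFmut libraries (0.11 ± 0.07, adjusted p = 0.207), and it was called higher after correction for GC content and length (0.21, adjusted p = 0.00362; range over the alternatives 0.00255 to 0.475). APH1A was at 114, 117 and 117 CPM in WT libraries and at 119, 128 and 125 CPM in ZFmut libraries (-0.10 ± 0.05, adjusted p = 0.154; 0.0394 without ZFmut replicate 1, and 0.0238 to 0.757 over the alternatives), and shares 14.1% of its exonic sequence with a gene on the other strand.

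Receptor turnover was represented by the endocytic adaptors NUMB and NUMBL, which antagonise Notch, and by the Deltex ubiquitin ligases DTX1 to DTX4. DTX1 had the largest difference of these 6 genes. Its levels were 11.1, 11.4 and 11.6 CPM in WT libraries and 3.88, 3.50 and 4.00 CPM in ZFmut libraries. The groups were far apart, and DTX1 was 2.96-fold higher (11.4 ± 0.289 against 3.79 ± 0.257 CPM, log2 difference 1.56 ± 0.10, adjusted p = 2.27e-08). The gene is ENSG00000135144.7 at chr12:113056709-113098028.

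NUMB was at 84.1, 82.3 and 76.3 CPM in WT libraries and at 71.3, 67.9 and 68.9 CPM in ZFmut libraries, a 1.17-fold higher level (log2 difference 0.22 ± 0.05, adjusted p = 0.00447). NUMBL was at 43.9, 50.04 and 49.1 CPM in WT libraries and at 49.97, 56.2 and 55.1 CPM in ZFmut libraries, with overlap, and its -0.17 ± 0.07 missed the threshold (adjusted p = 0.0526). Over 16 alternatives its adjusted p ranged from 0.00128 to 0.206, and 7 of them called it. DTX4 was at 7.87, 8.13 and 7.63 CPM in WT libraries and at 8.30, 10.2 and 10.1 CPM in ZFmut libraries, with no overlap. It was 1.22-fold lower in WT libraries (log2 difference -0.28 ± 0.10, adjusted p = 0.0313). The DTX4 call was lost after thinning (0.0569) and without any library but ZFmut replicate 1 (0.0518 to 0.176), and its adjusted p was lowest without that library (0.00343). DTX3 was at 36.8, 40.6 and 38.3 CPM in WT libraries and at 40.0, 42.1 and 44.3 CPM in ZFmut libraries (-0.13, interval -0.26 to 0.0042, adjusted p = 0.124; 0.0266 without ZFmut replicate 1, and 0.0266 to 0.916 over the alternatives). DTX2 was at 29.4, 29.8 and 31.7 CPM in WT libraries and at 27.0, 36.8 and 28.9 CPM in ZFmut libraries, with overlap (-0.02, interval -0.22 to 0.18, adjusted p = 0.881). DTX2 has a pseudogene copy, DTX2P1, so its counts are uncertain.

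In the nuclear complex, the Mastermind coactivators MAML2 and MAML3 differed in opposite directions. MAML2 was at 26.3, 27.0 and 25.9 CPM in WT libraries and at 22.8, 20.2 and 20.8 CPM in ZFmut libraries, a 1.25-fold higher level (log2 difference 0.32 ± 0.07, adjusted p = 0.00199). MAML3 was at 25.9, 26.1 and 26.0 CPM in WT libraries and at 33.6, 31.8 and 31.7 CPM in ZFmut libraries, a 1.24-fold lower level (-0.31 ± 0.06, adjusted p = 0.00101). Neither pair of groups overlapped. MAML2 shares 8.97% of its exonic sequence with exons on the other strand. MAML1 was at 102, 107 and 102 CPM in WT libraries and at 108, 113 and 109.7 CPM in ZFmut libraries (-0.09 ± 0.05, adjusted p = 0.194). RBPJ, the DNA-binding core of the complex, was at 97.98, 91.3 and 94.5 CPM in WT libraries and at 98.03, 78.5 and 86.6 CPM in ZFmut libraries. Its ranges overlapped, and the log2 difference of 0.11 ± 0.07 did not pass the test (adjusted p = 0.235). It was called without ZFmut replicate 1 (0.18, adjusted p = 0.0181; range over the alternatives 0.0146 to 0.714). RBPJ has pseudogenes that can take its reads, so its counts are uncertain.

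Per kilobase of exon, the mean level over all libraries was highest for NCSTN (40.6 CPM per kilobase), followed by APH1A (34.5), HES1 (30.2), HES4 (29), NOTCH2 (23.7) and MAML1 (18). NOTCH1 (14.4) and JAG1 (11) came next. HES1 was at 36.6 CPM per kilobase in WT libraries and 23.9 in ZFmut libraries, and HES4 at 43.6 and 14.5, so HES4 was above HES1 in the first group and below it in the other. The least abundant genes were DLL4 (0.0884), HES2 (0.0919) and NOTCH4 (0.0999).

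Beyond the 37 genes, 75 further genes of the pathway were listed and 66 passed the filter. Of these, 19 were higher (28.8%, against 18.4% of all tested genes) and 16 lower (24.2%, against 17.2%), with a median log2 difference of 0.03. These lists too were chosen with earlier results of these data known. Among 12 processing and glycosylation genes, 6 were higher and 3 lower (50 and 25%, against 18.4 and 17.2% of all tested genes). The receptor-cleaving protease FURIN was higher (451 ± 24.3 against 336 ± 20.8 CPM, log2 difference 0.42 ± 0.06, adjusted p = 6.89e-05). APH1B, the alternative to APH1A, was lower (-0.56 ± 0.09, adjusted p = 0.000315).

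Of 11 turnover and trafficking genes, 3 were higher and 3 lower (27.3% each, against 18.4 and 17.2% of all tested genes). NEURL1B, a ubiquitin ligase of Delta ligands, was 2.05-fold higher (23.9 ± 1.13 against 11.7 ± 0.708 CPM, adjusted p = 1.09e-07). MIB2, which also ubiquitinates ligands, was lower (65.3 ± 6.10 against 87.9 ± 7.99 CPM, adjusted p = 0.000436), and so was TSPAN14, a partner of the ADAM10 protease (-0.31 ± 0.05, adjusted p = 0.000289).

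Among 23 nuclear cofactors, 5 were higher and 5 lower (21.7% each), near the 18.4 and 17.2% of all tested genes. TLE2, a Groucho corepressor that HES proteins recruit, was 2.45-fold lower in WT libraries (5.66 ± 0.180 against 13.6 ± 1.74 CPM, adjusted p = 3.02e-07). The corepressor CTBP2 (0.47 ± 0.05, adjusted p = 8.61e-06) and the histone deacetylase HDAC2 (0.29 ± 0.06, adjusted p = 0.00111) were higher. CTBP2 shares 34.7% of its exonic sequence with exons on the other strand.

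Of 16 other targets, 4 were higher and 4 lower (25.0% each, against 18.4 and 17.2% of all tested genes). The targets named here were taken by smallest p and are all higher, and the 4 lower ones are not named. CDKN1A, the cell cycle inhibitor p21, was 1.84-fold higher (80.2 ± 2.03 against 43.6 ± 0.594 CPM, adjusted p = 1.31e-08). GATA3 was 2.52-fold higher (20.2 ± 0.526 against 7.97 ± 0.806 CPM, adjusted p = 2.46e-08), and BHLHE40 was 1.70-fold higher (adjusted p = 7.03e-08). Among 4 other ligands, the extracellular matrix protein MFAP2 was 1.86-fold lower (86.9 ± 9.42 against 162 ± 14.6 CPM, adjusted p = 7.77e-07) and the secreted Notch modulator EGFL7 was 1.90-fold higher (adjusted p = 1.17e-06).

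**Figure D5:**
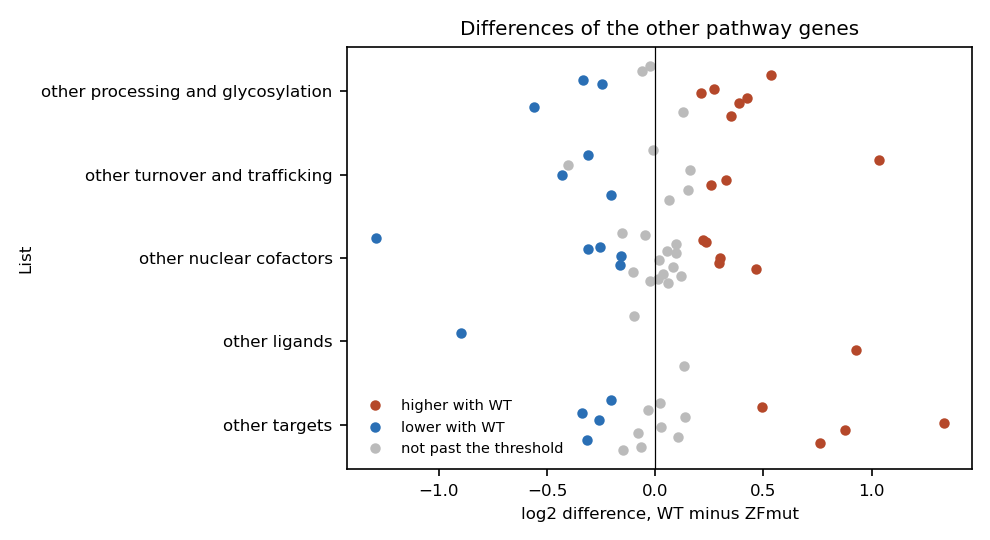
Log2 difference, WT minus ZFmut, of 66 other Notch pathway genes grouped by sub-list, from edgeR's quasi-likelihood fit on 3 libraries per group, with called genes marked. Genes lie on each side of 0 in every sub-list, with 19 called higher and 16 lower.

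The cell type was checked against markers. Of 10 genes of sonic hedgehog medulloblastoma and granule neuron precursors, 8 passed the filter, while ATOH1 and MYCN were near 0. In this list GLI1 (10.7 and 8.40 CPM in WT and ZFmut means) and PTCH1 (47.8 and 43.3 CPM) were higher in WT libraries, and SFRP1 (88.3 and 102 CPM) and HHIP (1.41 and 2.32 CPM) were lower. The list summed to 256 to 282 CPM in WT libraries and 276 to 294 CPM in ZFmut libraries. The PTCH1 call was close to the threshold (adjusted p = 0.0472 by edgeR's quasi-likelihood test). Of all tested genes, 18.4% were higher and 17.2% lower in WT libraries, the background for each marker call here and below.

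Sums over the lists of other cell types often rested on a single gene, and no list was tested. Neural progenitor markers summed to 817 to 843 CPM in WT libraries and 880 to 921 CPM in ZFmut libraries. Of these 5 markers, 3 (NES, SOX2 and MSI1) were lower, against 17.2% of all tested genes. Neuronal markers summed to 22.5 to 24.2 and 14.2 to 18.6 CPM, where MAP2 was higher (13.5 and 5.43 CPM), SYP was at 5.90 and 7.61 CPM, and no gene but MAP2 was called. Glial markers summed to 5.97 to 6.65 and 6.83 to 7.22 CPM and moved in opposite directions. AQP4 was higher (1.51 and 0.0870 CPM), GFAP (0.476 and 0.893 CPM) and OLIG2 (3.36 and 5.23 CPM) were lower, and SOX10 had 0 reads. The GFAP call, on 59 and 125 reads, was close to the threshold (adjusted p = 0.0473 by edgeR's quasi-likelihood test). Endothelial markers summed to 13.9 to 14.6 and 21.6 to 25.3 CPM, where TEK (12.4 and 19.9 CPM) and PECAM1 (0.303 and 1.37 CPM) were lower and CDH5 was near 0. Epithelial markers summed to 3.10 to 3.87 and 0.893 to 1.00 CPM, mostly CDH1 (2.91 and 0.471 CPM), with EPCAM at 0.438 and 0.388 CPM. Blood and immune markers summed to 0.829 to 1.58 and 1.25 to 1.33 CPM. Their part in the differences of the Notch genes was not tested.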

How the data were processed

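RNA was measured in 3 WT and 3 ZFmut libraries, grouped by sample titles. The submitters' processing notes name GRCh38, TopHat2 2.0.9, cutadapt, HTSeq and DESeq2, without their order. Which annotation release was counted, and whether by strand, is not given in the sources used here. The deposited files hold whole-number read counts for each gene, before any normalisation. Per the labels' protocols, libraries came from a NEBNext Ultra RNA kit. Summary lines that name no gene were left out: 7.71 to 8.08% of all reads were ambiguous between genes, 5.04 to 6.56% outside genes and 16.1 to 19.4% aligned to several places. Reads shared by paralogs or overlapping genes are therefore missing from the counts. Symbols, positions and exon lengths came from GENCODE release 29, which held 56996 (94.1%) of the identifiers. Every pair of libraries differed by more than sampling noise (chi-square of at least 3.16 per degree of freedom).

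Counts were compared by edgeR 4.0.16 under R 4.3.3 (TMM scaling, filterByExpr, two-sided quasi-likelihood F test, no covariates), adjusted by Benjamini and Hochberg over 18683 genes at 0.05. Log2 differences are given as WT minus ZFmut, their standard errors come from the fit, and CPM uses TMM library sizes. The biological coefficient of variation was 6.27%. The method was tested on simulated data.

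The 37 genes and the other lists were chosen with earlier results of these data known. Every one of the 37 may be named. Markers are given by level and by whether they were called. Of the other pathway genes, up to 3 called ones per sub-list are named. They are those with the smallest p, at a mean of at least 1 CPM. A gene that the rule takes is not reported here.

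The alternatives were median-of-ratios and upper-quartile factors, DESeq2 1.42.0, limma-voom (limma 3.58.1), no filter, a filter of 5 CPM in at least 3 libraries, each library left out, the replicate number as a block, loess offsets for GC content and length (span 0.5) with and without the block, and thinning to the smallest library.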

Additional observations from a re-analysis of the deposited data

How the results depend on the processing

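Over 16 alternatives, 13 to 18 of the 37 genes were higher in WT libraries, against 16 in the reported fit. The 13 came with the filter of 5 CPM in at least 3 libraries, where HES2, HES5 and HEYL were not tested. The 16 include HES2 and HES5, whose direction the filter of the reported fit fixed. With the replicate block, 10 genes were lower in place of 6, and the genes added were APH1A, NUMBL, DTX3 and MAML1; it also called RBPJ (adjusted p = 0.0146) and NRARP (0.0485) higher. Leaving out each library gave 3 to 10 lower genes. The other pathway genes gave 17 to 28 higher and 11 to 19 lower. The log2 difference of ZBTB7B ranged from 0.61 to 0.78 and was called in every setting.

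Of 823 pairs of a gene and an alternative over 52 genes followed, 771 kept direction and side of the threshold, 17 lost the call, 23 gained it and 12 changed sign. The 771 include 15 pairs of HES2 and 13 of HES5, which say nothing on stability, since the filter fixed the direction of both genes. The changes of sign were in genes not called in the reported fit. DLL3 was at 0.11 after thinning. With offsets for GC content and length, RFNG was at 0.065, DTX2 at 0.11 and RBPJ at -0.045, and with the replicate block added RFNG was at 0.075, DTX2 at 0.11 and RBPJ at -0.042. DTX2 was at 0.092 after thinning. Leaving out single libraries moved RFNG between -0.11 and 0.039, DTX2 between -0.10 and 0.11 and HES6 between -0.22 and 0.0015. The cause was not tested.

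Same-numbered replicates deviated together with correlations of 0.164, 0.077 and 0.064, and not every one exceeded 0.1, so the numbers were not taken to pair the samples. Each of the 6 libraries correlated best with its own number, a hint from the data and not from the design. With the block, 4466 of all tested genes were higher and 4226 lower, against 3442 and 3207.

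Depth limits HES2, HES5, HEYL, DLK1, DLL4 and NOTCH4, whose groups hold 6 to 173 reads.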

Other observations

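HES3 and HELT, relatives of the HES and HEY repressors, were below the filter and were not tested. HES3 had 3 reads over the WT libraries and 0 over the ZFmut libraries, and HELT also had 3 and 0. CNTN1, a contactin known as a Notch ligand, had 5 and 20 reads.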
